A study of Mus musculus with 11 samples.

Results

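Genes of fibroblast growth factor (FGF) signalling were followed through RNA-seq of fetal lung mesenchymal cells that carried both, 1 or neither copy of Sp3, the gene of a ubiquitous zinc finger transcription factor. The 10 genes, taken by symbol from the 24062 genes of the count files, were 6 ligands (Fgf1, Fgf2, Fgf7, Fgf9, Fgf10 and Fgf18) and the 4 receptors (Fgfr1, Fgfr2, Fgfr3 and Fgfr4). Primary mesenchymal cells were isolated from mouse lungs at embryonic day 15 by adhesion to plastic, and were passaged before RNA was extracted. The 11 libraries were 4 WT (Sp3+/+, named 468-4, 685-2, 697-1 and 697-3), 4 Sp3+/- (468-3, 685-5, 685-7 and 697-4) and 3 Sp3-/- (685-1, 697-2 and 697-5). Embryos came from timed matings of Sp3+/- parents, the mutant allele was constitutive rather than restricted to the mesenchyme, and every library title also carries the word CTRL, which is not explained. Between 9849111 and 59297495 reads were counted on genes per library.

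FGFs are secreted proteins that bind receptor tyrosine kinases together with heparan sulfate and signal through the RAS and ERK kinases. In the developing lung, mesenchymal cells secrete FGF10 and FGF7, which act on the FGFR2 splice form of the epithelium and drive the budding and growth of airways. FGF9 is made by the mesothelium and epithelium and acts back on receptors of the mesenchyme, and FGF18 is a mesenchymal ligand. FGF1 and FGF2 lack a classical signal peptide. Sprouty, Spred and dual specificity phosphatase genes are induced by the pathway and restrain it.

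Fgf10, Fgf7 and Fgfr2 were lower in Sp3-/- cells, and the bases before the annotated start of each are shown because Sp3 belongs to the Sp family, whose members bind GC boxes. Each sequence is the 250 bases before the start in RefSeq on GRCm38.p6, 5′ to 3′ on the strand of the gene, in lower case with any GC box (GGGCGG, or CCGCCC where it lies on the other strand) in capitals. Fgf10 is on the plus strand and its sequence is chr13:118714449-118714698. Fgf7 is on the plus strand, at chr2:126034408-126034657. Fgfr2 is on the minus strand, at chr7:130266809-130267058.
Fgf10: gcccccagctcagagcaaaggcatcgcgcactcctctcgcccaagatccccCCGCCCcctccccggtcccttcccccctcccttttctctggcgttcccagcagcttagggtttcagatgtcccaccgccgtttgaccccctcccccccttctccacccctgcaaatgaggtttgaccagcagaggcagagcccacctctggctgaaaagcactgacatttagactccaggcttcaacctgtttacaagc
Fgf7: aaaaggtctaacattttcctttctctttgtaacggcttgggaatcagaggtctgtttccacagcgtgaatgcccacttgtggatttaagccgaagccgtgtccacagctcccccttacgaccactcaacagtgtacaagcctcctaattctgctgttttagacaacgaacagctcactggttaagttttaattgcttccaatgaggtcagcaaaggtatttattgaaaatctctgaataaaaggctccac
Fgfr2: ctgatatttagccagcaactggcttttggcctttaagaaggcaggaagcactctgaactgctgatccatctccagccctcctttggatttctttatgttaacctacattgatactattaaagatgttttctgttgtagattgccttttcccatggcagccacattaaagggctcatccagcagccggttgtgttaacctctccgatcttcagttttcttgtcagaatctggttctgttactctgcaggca
The Fgf10 sequence holds 1 GC box, whose first base lies at -199 relative to the start, whereas those of Fgf7 and Fgfr2 hold none. The search covered both strands of 300 bases per window, 250 before and 50 after the start, and boxes may overlap. Windows were found for 8 of the 10 genes. Fgf2 and Fgf18 held 1 box each, Fgf9 held none, Fgfr4 held 4, and the 2 windows of Fgfr3 held 4 and 2. A box was present in 35.7% of all 32851 windows and in 61.1% of the 13441 windows of tested genes. A match describes the letters of a window and does not show binding, and genes with other start sites have promoters outside these windows.

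The labels were checked against Sp3 itself and against cell type markers. Sp3 was measured at 5.92 to 6.75 log2 CPM (counts scaled to library size) in WT, 5.70 to 6.16 in Sp3+/- and 3.86 to 4.24 in Sp3-/- libraries, so that Sp3-/- did not overlap either of the other genotypes, while WT and Sp3+/- overlapped. The summed level of 20 lung mesenchyme markers was 13219 to 22300 CPM in WT, 15058 to 22556 in Sp3+/- and 7213 to 19146 in Sp3-/-, and 19 of the 20 were counted in every library. Summed levels of 16 epithelial markers were 25.3 to 51.6 CPM in WT, 33.0 to 51.3 in Sp3+/- and 55.8 to 185 in Sp3-/-, with 5 counted in every library and none at 0 throughout. The 8 smooth muscle markers summed to 11656 to 25640 CPM in WT, 14819 to 21103 in Sp3+/- and 4031 to 5040 in Sp3-/-. The 10 mesothelial markers summed to 849 to 1793, 1543 to 2699 and 2270 to 6169 CPM, and the 11 macrophage markers to 619 to 3250, 366 to 3056 and 3116 to 11532 CPM, in the same order of genotypes. Endothelial markers (10 genes) summed to between 36.4 and 130 CPM in every library, and 4 of 8 erythroid markers were at 0 throughout. Between Sp3-/- and WT, 7 of 8 smooth muscle and 5 of 18 mesenchyme markers tested were called lower, 3 of 9 epithelial, 4 of 8 mesothelial, 4 of 11 macrophage and the 1 erythroid marker tested were called higher, and of 9 endothelial markers 2 were called higher and 1 lower. Of all 14025 genes tested, 8.76% were called higher and 9.77% lower. The part of these markers in the levels of the FGF genes was not tested. The titles of all 3 Sp3-/- libraries carry no suffix, whereas only 468-4 of WT and 697-4 of Sp3+/- lack one and the other 6 end in 2 or 3. The sources do not explain the suffix, and genotype and suffix can be told apart only through those 2 libraries. Among the Sp3-carrying libraries, macrophage markers summed to 3250 and 3056 CPM in these 2 and to between 366 and 902 in the rest.

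Levels can be compared between genes only per length, as CPM per kb of the canonical transcript, and on this scale the receptors Fgfr1 and Fgfr2 had the highest means. In WT cells Fgfr1 was measured at 28.3 ± 3.14 CPM per kb (SD, n = 4) and Fgfr2, whose isoforms were counted together, at 16.1 ± 4.99. The mesenchymal ligands had lower means, Fgf10 at 7.12 ± 3.73, Fgf7 at 5.96 ± 0.594 and Fgf18 at 4.93 ± 1.74 CPM per kb. These 3 neighbours overlapped in their library ranges (1.56 to 9.66, 5.47 to 6.78 and 2.86 to 6.56) and were not separated by their spread, and the highest Fgf10 library lay above the lowest Fgfr2 library (8.97). Fgf2 (1.31 ± 0.160) and Fgf9 (1.12 ± 0.306) also overlapped, as did Fgfr3 (0.608 ± 0.176) and Fgf1 (0.566 ± 0.284). Fgfr4 was at the bottom with 0.0700 ± 0.0306 CPM per kb, from 2 to 11 counts in any of the 11 libraries, and was too low to be tested. In Sp3-/- cells Fgfr1 had a mean of 35.4 ± 3.98 (n = 3), Fgfr2 was at 7.53 ± 1.02, Fgf18 at 7.45 ± 1.84 and Fgf1 at 3.28 ± 1.09. Fgf7 and Fgf10 were at 1.46 ± 0.869 and 1.25 ± 0.382 CPM per kb in these cells, Fgf9 at 2.10 ± 0.651 and Fgf2 at 1.62 ± 0.0531. The library ranges of Fgf7 (0.584 to 2.32) and Fgf10 (0.988 to 1.69) overlapped those of Fgf9 (1.65 to 2.84) and Fgf2 (1.56 to 1.67), and Fgf18 overlapped Fgfr2, so that these neighbours were not separated. With the union of all exons as the length, Fgf18 (4.30) stood above Fgf7 (4.03) in WT cells. In Sp3-/- cells Fgf18 (6.51) then stood above Fgfr2 (3.75), Fgf9 (1.75) above Fgf1 (1.64) and Fgf10 (1.12) above Fgf7 (0.987).

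**Figure D1:**
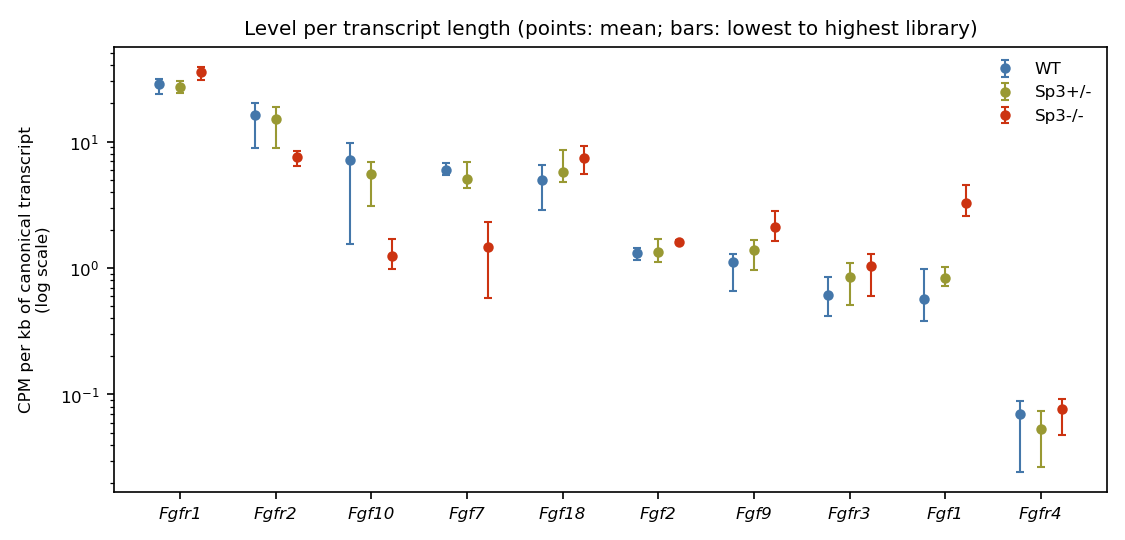
CPM per kb of canonical transcript (log scale) of each FGF ligand and receptor, ordered by the WT mean. Points are means of 4 WT, 4 Sp3+/- and 3 Sp3-/- libraries and bars span the lowest to the highest library. Fgf10 and Fgf7 lie at 7.12 and 5.96 in WT and 1.25 and 1.46 in Sp3-/- cells, and Fgf1 lies at 0.566 and 3.28.

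The main comparison asked which of these genes differ when both copies of Sp3 are absent. Of the 9 genes tested, 4 were called with edgeR's quasi-likelihood test at an adjusted p (Benjamini-Hochberg, over all 14025 genes) below 0.05. Fgf1 rose, and Fgf7, Fgf10 and Fgfr2 fell. Over all genes tested, 18.5% were called, 8.76% as higher and 9.77% as lower. The libraries of WT and Sp3-/- did not overlap for 5 of the 9 genes (Fgf1, Fgf2, Fgf7, Fgf9 and Fgfr2), beside 31.3% of all genes tested. The median log2 fold change of the 9 was 0.32, beside -0.00 over all genes. In these bulk libraries, fewer cells of a type and less RNA per cell cannot be told apart.

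Fgf7, the keratinocyte growth factor that mesenchyme supplies to epithelium, was among the genes that fell. Its level was 4.03, 4.34, 4.17 and 4.06 log2 CPM in WT libraries 468-4, 685-2, 697-1 and 697-3. In Sp3+/- libraries 468-3, 685-5, 685-7 and 697-4 it was 3.70, 3.84, 4.38 and 3.67. In Sp3-/- libraries 685-1, 697-2 and 697-5 it was 0.85, 2.15 and 2.80. Every Sp3-/- library was below every other library, and the Sp3-/- libraries spread over nearly 2 log2 units, from 62 counts in 685-1 upwards. The fold change was -2.07 on the log2 scale (SE 0.43), that is 4.21-fold lower (adjusted p = 0.0226, edgeR). With the title suffix as a covariate in a fit of all 11 libraries it was -1.90 (SE 0.46, adjusted p = 0.0386, edgeR), in a fit that called 9.41% of all genes. The call was lost without WT 685-2 (adjusted p = 0.0579), WT 697-1 (0.0605), WT 697-3 (0.0583) or Sp3-/- 697-2 (0.0852), with fold changes of -1.68 to -2.54 over the 7 edgeR fits that each left out 1 library.

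Fgf10, the ligand on which lung bud outgrowth depends, was the other ligand that fell. WT libraries 468-4, 685-2, 697-1 and 697-3 were at 5.26, 5.43, 5.27 and 2.81 log2 CPM. Sp3+/- libraries 468-3, 685-5, 685-7 and 697-4 were at 4.78, 4.77, 4.95 and 3.80, and Sp3-/- libraries 685-1, 697-2 and 697-5 at 2.27, 2.16 and 2.92. WT library 697-3 stood apart from the other 3 and was below Sp3-/- library 697-5, so that WT and Sp3-/- overlapped, whereas Sp3+/- and Sp3-/- did not. The fold change was -2.54 (SE 0.62), 5.82-fold lower in Sp3-/- than in WT (adjusted p = 0.0329, edgeR). Without WT 697-3 it was -2.88 with a smaller error (SE 0.24, adjusted p = 0.0189, edgeR). The call was lost with limma-voom (-2.30, adjusted p = 0.1147) and when edgeR took the title suffix into account (-2.43, adjusted p = 0.0614). It was also lost without Sp3-/- 685-1 (adjusted p = 0.0762, edgeR), WT 685-2 (0.0793), WT 697-1 (0.0807), Sp3-/- 697-2 (0.1223) or Sp3-/- 697-5 (0.0617). With suffix or none as the covariate, chosen after seeing the data, the call was kept (-2.41, adjusted p = 0.0446, edgeR).

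Fgf1, a ligand that can bind all FGF receptors, moved the other way. It was measured at 2.09, 1.08, 0.75 and 0.86 log2 CPM in WT libraries 468-4, 685-2, 697-1 and 697-3. Levels in Sp3+/- libraries 468-3, 685-5, 685-7 and 697-4 were 1.64, 1.85, 1.77 and 2.11, and in Sp3-/- libraries 685-1, 697-2 and 697-5 they were 3.53, 3.47 and 4.27. All Sp3-/- libraries were above all others, and the 2 Sp3-carrying libraries without a suffix, 468-4 and 697-4, were the highest of their genotypes. Fgf1 rose by 2.52 on the log2 scale (SE 0.40), 5.73-fold (adjusted p = 0.0125, edgeR). With the suffix covariate the rise was 2.00 (SE 0.35, adjusted p = 0.0147, edgeR). The call was kept in all 7 fits without 1 library, in which the rise ranged from 2.20 to 2.94 and the adjusted p reached 0.0452.

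The remaining ligands were not called. Fgf9 was at 1.68 to 2.64 log2 CPM in WT, 2.22 to 2.99 in Sp3+/- and 2.98 to 3.76 in Sp3-/- libraries, with a fold change of 0.90 (SE 0.29, adjusted p = 0.0661, edgeR). WT and Sp3-/- did not overlap for this gene, and DESeq2 called it (adjusted p = 0.0180). The mesothelial markers named above, of which 4 of 8 tested were called higher and none lower in Sp3-/- cells (Wt1 1.44, Bnc1 1.79 and Upk1b 1.79 on the log2 scale, with adjusted p = 0.0100, 0.0319 and 0.0340 by edgeR), moved in the direction of Fgf9, and their part in its level was not tested. Fgf2 was at 2.87 to 3.20 in WT and 3.30 to 3.40 log2 CPM in Sp3-/- libraries (0.30, SE 0.15, adjusted p = 0.1726, edgeR). Nudt6 lies antisense to Fgf2, and because the strand setting of the counting is not given in the sources used here, its reads could be counted with those of Fgf2. Fgf18 was at 2.48 to 3.67 in WT and 3.42 to 4.15 in Sp3-/- libraries, which overlapped (0.59, SE 0.32, adjusted p = 0.2153, edgeR).

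**Figure D2:**
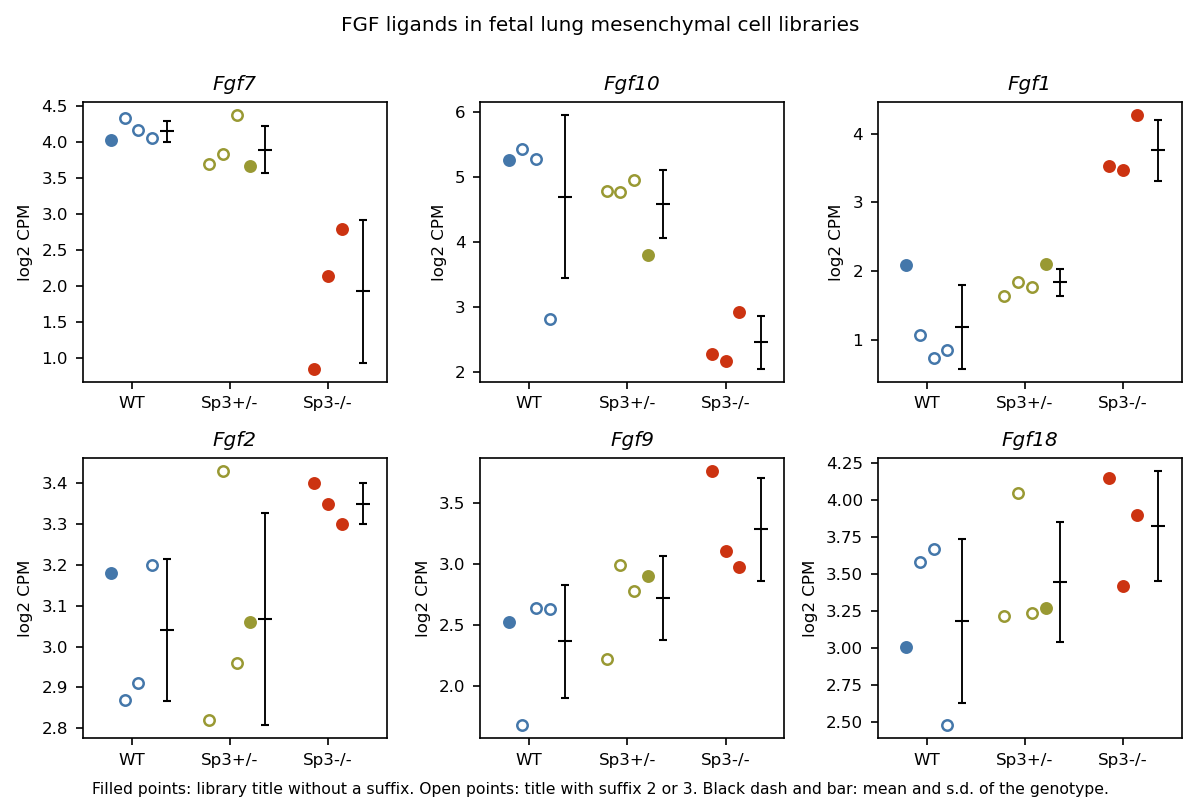
Log2 CPM of the 6 FGF ligands in each library by genotype (4 WT, 4 Sp3+/- and 3 Sp3-/-), each panel on its own axis. Filled points are libraries whose title has no suffix, open points those with suffix 2 or 3, and the black dash and bar give the mean and SD. The 3 Sp3-/- libraries lie below all others for Fgf7 (0.85 to 2.80) and above all others for Fgf1 (3.47 to 4.27), and WT library 697-3 lies at 2.81 for Fgf10.

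Among the receptors, Fgfr2 was called, and its level followed the title suffix as well as the genotype. WT libraries 468-4, 685-2, 697-1 and 697-3 were at 5.66, 6.53, 6.84 and 6.71 log2 CPM. Sp3+/- libraries 468-3, 685-5, 685-7 and 697-4 were at 6.73, 6.53, 6.54 and 5.65, and Sp3-/- libraries 685-1, 697-2 and 697-5 at 5.56, 5.47 and 5.17. The 2 Sp3-carrying libraries without a suffix lay at 5.65 and 5.66, just above the Sp3-/- libraries, and the 6 with a suffix between 6.53 and 6.84. The fold change between Sp3-/- and WT was -1.10 (SE 0.27), 2.14-fold lower (adjusted p = 0.0345, edgeR), and it was -0.32 (SE 0.13, adjusted p = 0.1487, edgeR) with the suffix as a covariate. Of the 7 fits with a single library removed, 1 called it, that without 468-4 (-1.30, adjusted p = 0.0029, edgeR). Adjusted p-values in the fits without 685-1, 685-2, 697-1, 697-2, 697-3 or 697-5 were 0.0573, 0.0813, 0.0839, 0.1114, 0.0888 and 0.0922. Ctbp2 overlaps Fgfr2 on the same strand, and reads of shared bases could be lost to both.

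Fgfr1, the most abundant receptor per length, was at 7.20 to 7.59 log2 CPM in WT, 7.22 to 7.54 in Sp3+/- and 7.57 to 7.89 in Sp3-/- libraries. WT and Sp3-/- overlapped slightly, and the difference of 0.32 (SE 0.12) was not called (adjusted p = 0.1005, edgeR). The 2 Sp3-carrying libraries without a suffix, at 7.20 and 7.22, were the lowest of all 11. With the suffix covariate the difference was 0.51 and passed the test (adjusted p = 0.0360, edgeR). Fgfr3 was at 0.88 to 1.86 in WT and 1.39 to 2.45 log2 CPM in Sp3-/- libraries (0.75, SE 0.35, adjusted p = 0.1600, edgeR). Fgfr4 stayed below -1.4 log2 CPM in every library.

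**Figure D3:**
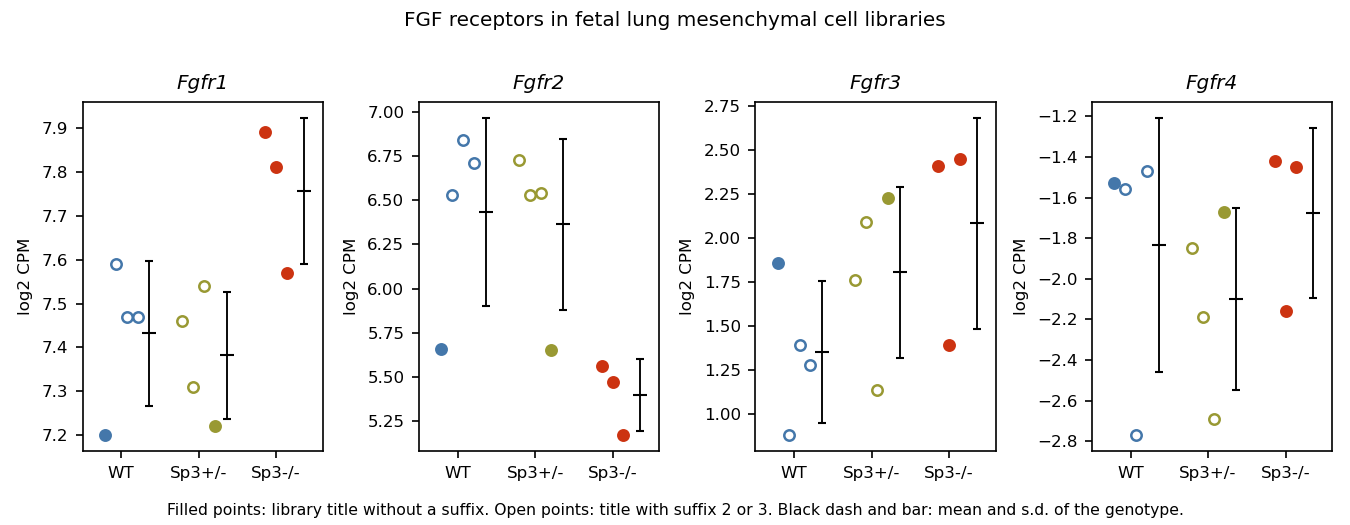
Log2 CPM of the 4 FGF receptors in each library by genotype (4 WT, 4 Sp3+/- and 3 Sp3-/-), each panel on its own axis, with points and bars as for the ligands. For Fgfr2 the filled points of WT and Sp3+/- lie at 5.66 and 5.65, between the Sp3-/- points (5.17 to 5.56) and the open points (6.53 to 6.84).

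Side by side, the fit without and the fit with the title suffix gave the same direction for all 9 genes tested. Fgf1 and Fgf7 were called in both. The file name of Sp3+/- 697-4 carries a suffix that its title lacks. With the suffixes of the file names as the covariate no FGF ligand or receptor was called by edgeR, beside only 163 of all genes. Fgf1 was then at 1.72 (adjusted p = 0.0802, edgeR) and Fgf7 at -1.98 (adjusted p = 0.1044, edgeR). Without and with the title suffix, Fgf10 was at -2.54 and -2.43, with a larger error and no call in the latter fit. Fgfr2 was at -1.10 and -0.32, again with no call in the fit with the title suffix. Between the 3 Sp3-/- libraries and the single WT library without a suffix, the fold changes were 1.71 for Fgf1, -1.95 for Fgf7, -2.82 for Fgf10 and -0.27 for Fgfr2. In that fit no gene of any kind was called, and the lone WT library is assumed to vary as the Sp3-/- libraries do.

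**Figure D4:**
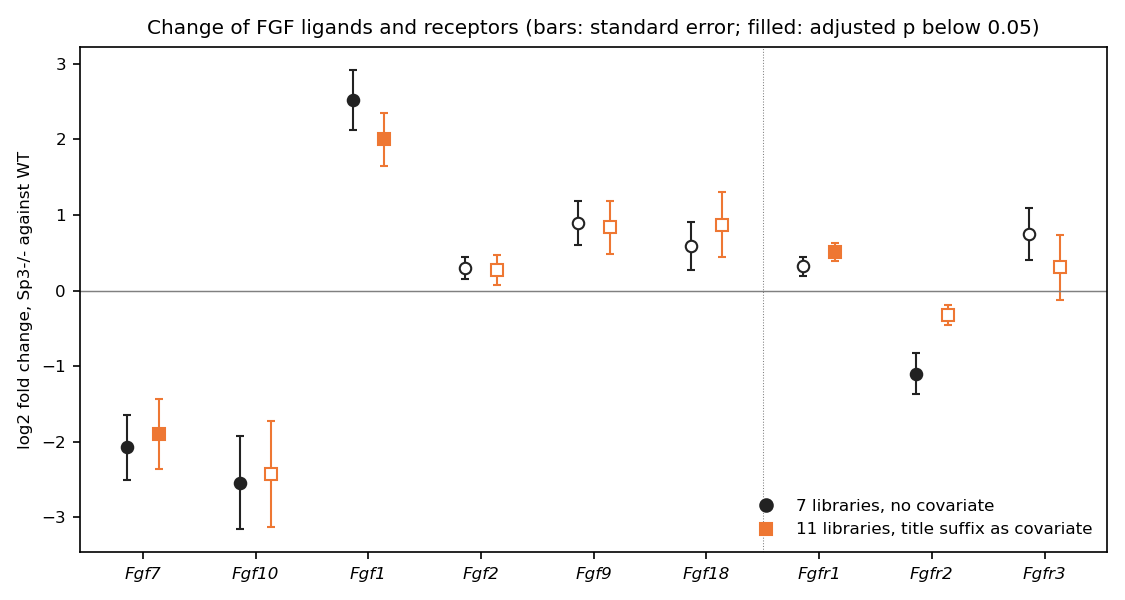
Log2 fold change of 9 FGF ligands and receptors between Sp3-/- and WT cells, with the standard error, from the 7 libraries of these genotypes (circles) and from all 11 libraries with the title suffix as a covariate (squares). Filled symbols passed an adjusted p of 0.05. Fgfr2 moves from -1.10 to -0.32, and Fgf7 from -2.07 to -1.90.

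The Sp3+/- libraries were set against WT to ask whether loss of 1 copy changes these genes. None of the 9 was called with edgeR (adjusted p = 0.9999 for each), nor with DESeq2 or limma-voom, and none had an unadjusted p below 0.05. The percentage called among all 14130 genes was 0, with 246 at an unadjusted p below 0.05. The lowest unadjusted p among the 9, from the edgeR fit, was 0.1198 for Fgf1, whose fold change was 0.55 (SE 0.32). Those of Fgf7 and Fgf10 were -0.23 (SE 0.32) and -0.36 (SE 0.47), and that of Fgfr2 was -0.09 (SE 0.27). A p above the threshold does not show that the genotypes are alike. Sp3 itself was lower by a fold change of -0.49 (SE 0.16, adjusted p = 0.9999, edgeR), and it was not called either.

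Against Sp3+/- cells, which share their Sp3-/- libraries with the main comparison, 5 of the 9 genes were called in Sp3-/- cells, beside 25.5% of all genes. Fgf1 was higher by 1.96 on the log2 scale (SE 0.34, adjusted p = 0.0048, edgeR) and Fgfr1 by 0.37 (SE 0.12, adjusted p = 0.0384, edgeR). Fgf7 was lower, with a fold change of -1.86 (SE 0.38, adjusted p = 0.0090, edgeR). Those of Fgf10 and Fgfr2 were -2.20 (SE 0.56, adjusted p = 0.0194) and -1.01 (SE 0.30, adjusted p = 0.0326). The libraries of both genotypes did not overlap for these 5 genes, beside 34.0% of all genes tested. Fgf1 and Fgf7 were called in all 11 edgeR fits that omitted a library. Fgf10 was not called without Sp3-/- 685-1 (adjusted p = 0.0524, edgeR) or Sp3-/- 697-2 (0.0797). Fgfr2 was not called without 468-3, 685-1, 685-5, 685-7, 697-2 or 697-5 (adjusted p = 0.0529 to 0.0955, edgeR), and Fgfr1 was called without 468-4, 685-2 or 697-5 and in none of the other 8 fits (adjusted p up to 0.1081). With the title suffix as a covariate only Fgfr1 was called (0.58, adjusted p = 0.0340, edgeR), beside 763 of all genes. Fgf1 was at 1.34 (adjusted p = 0.0668), Fgf7 at -1.74 (0.0690), Fgf10 at -1.99 (0.1392) and Fgfr2 at -0.18 (0.4109). With suffix or none as the covariate, chosen after seeing the data, Fgf1 (1.34, adjusted p = 0.0453, edgeR) and Fgfr1 (0.57, 0.0234) were called, beside 919 of all genes.

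The genes that restrain FGF signalling were considered next. Of 12 feedback inhibitors tested, 10 were higher in Sp3-/- than in WT cells, 5 were called higher and none lower, with a median of 0.52, beside -0.00 over all genes, of which 18.5% were called and 8.76% were called higher. Spry4, a Sprouty inhibitor of RAS activation, was at 3.29, 2.79, 2.27 and 2.87 log2 CPM in WT 468-4, 685-2, 697-1 and 697-3 and at 4.52, 4.32 and 3.81 in Sp3-/- 685-1, 697-2 and 697-5. The genotypes did not overlap, and Spry4 rose by 1.39 (SE 0.26, adjusted p = 0.0166, edgeR). Dusp6, a phosphatase of ERK, was at 4.14, 3.58, 3.66 and 3.81 log2 CPM in the same WT libraries and 5.22, 5.44 and 4.52 in the same Sp3-/- libraries. It rose by 1.30 (SE 0.23, adjusted p = 0.0151, edgeR), again with no overlap. Spred1 (0.84, adjusted p = 0.0425), Il17rd, which encodes the membrane inhibitor Sef (0.73, 0.0292), and Cbl, an E3 ubiquitin ligase (0.61, 0.0389), were the other 3 by edgeR. Spry1 was the exception in size, at -1.06, and did not pass (adjusted p = 0.0893, edgeR). With the suffix covariate Spry4 (1.08, adjusted p = 0.0360) and Dusp6 (1.06, adjusted p = 0.0314, edgeR) were called and the other 3 were not. With the suffixes of the file names none of the 12 was called, beside 163 of all genes (adjusted p = 0.2395 for Spry4 and 0.2775 for Dusp6, edgeR). With suffix or none as the covariate Spry4 passed (adjusted p = 0.0410, edgeR) and Dusp6 did not (0.0694). The number called was 0 without Sp3-/- 697-2, 1 without WT 685-2 or WT 697-3, and 2 without WT 697-1. Over all genes, 282, 893, 802 and 766 were called in these fits, in that order. The number was 4 without Sp3-/- 685-1 and 6 without WT 468-4 or Sp3-/- 697-5, beside 2232, 4179 and 1408 of all genes. Dusp6 was called in 6 of these 7 fits and Spry4 in 4, with adjusted p-values of 0.0603 and 0.0667 by edgeR without 697-2.

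Of 15 genes listed as responding to FGF and ERK signalling, 1 was called higher and 2 lower by edgeR in the 7 libraries. That share was close to the 18.5% called over all genes, but the number depended on the fit. It was 5 with DESeq2, limma-voom or all 11 libraries and 3 with the title suffix, beside 4297, 2493, 3977 and 1329 of all genes. Adding the first title number to the fit gave 6, beside 4031. With 1 library left out it was 0 (without 697-2) to 6 (without 468-4), beside 282 and 4179. Fos, an immediate early transcription factor, rose by 1.11 (SE 0.29, adjusted p = 0.0378, edgeR), and Myc and Lrig1, a negative regulator of receptor tyrosine kinases, had fold changes of -0.64 (SE 0.15, adjusted p = 0.0317) and -0.61 (SE 0.10, adjusted p = 0.0125). Etv5 and Etv4, the ETS factors most used as readouts of FGF activity, were at 0.91 (adjusted p = 0.0529, edgeR) and -0.03 (0.9155). Fos was no longer called once the suffix was in the fit (0.71, adjusted p = 0.1096, edgeR), while Myc and Lrig1 were called (-0.98 and -0.46, adjusted p = 0.0103 and 0.0211). With the suffixes of the file names none of the 15 passed, beside 163 of all genes (adjusted p = 0.1111 for Myc and 0.1683 for Lrig1, edgeR). Of the 7 edgeR fits that omitted a library, 6 called Lrig1, 2 called Myc and 1 called Fos. None of the 15 was called without Sp3-/- 697-2, beside 282 of all genes. The adjusted p of Lrig1, Myc and Fos was then 0.0560, 0.0930 and 0.1259 (edgeR).

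**Figure D5:**
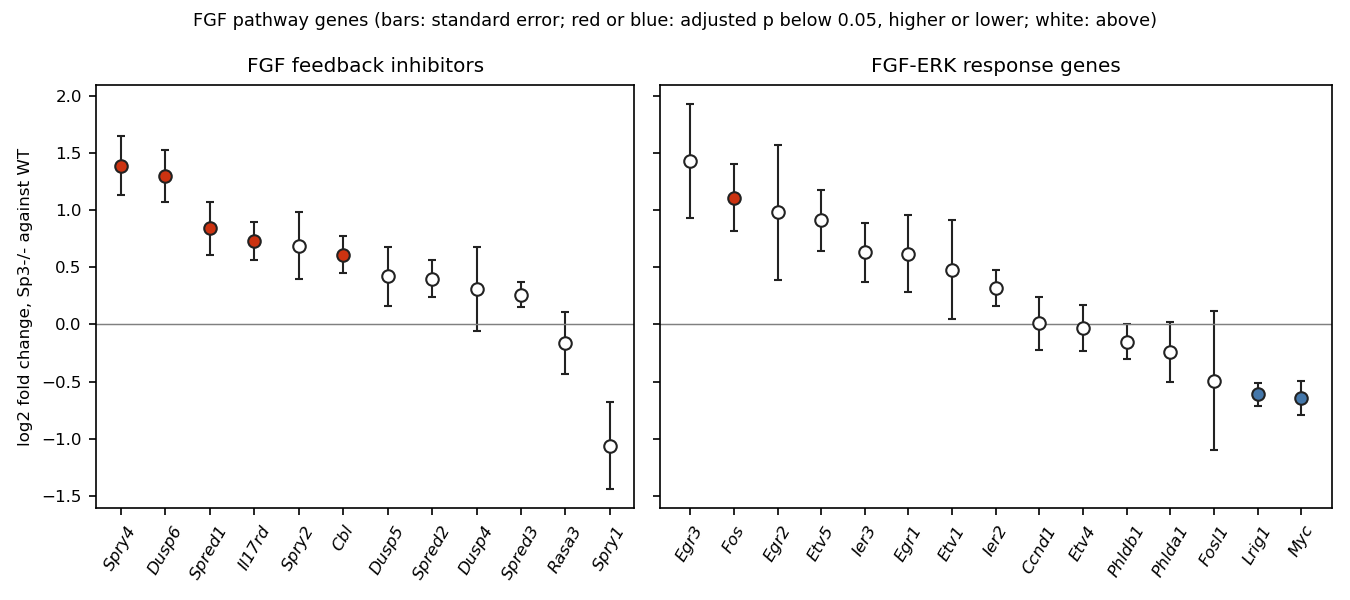
Log2 fold change between Sp3-/- (n = 3) and WT (n = 4) cells, with the standard error, of 12 FGF feedback inhibitors and 15 FGF-ERK response genes, ordered by size. Red and blue points passed an adjusted p of 0.05 as higher or lower, and white points did not. Spry4 (1.39) and Dusp6 (1.30) lead the first panel, and Lrig1 (-0.61) and Myc (-0.64) close the second.

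Of 20 tested genes that build or edit heparan sulfate, the co-factor of FGF binding, the fold change from WT to Sp3-/- was positive for 11 and negative for 9 (median 0.09). Among them 4 were called lower and none higher, beside 9.77% of all genes called lower and 18.5% called in either direction. The number called was 7 with DESeq2 or all 11 libraries, beside 4297 and 3977 of all genes. It was 3 with limma-voom and 2 with the title suffix, beside 2493 and 1329. Adding the first title number to the fit gave 6, beside 4031. Ext1, a polymerase of the heparan sulfate chain, had a fold change of -1.04 (SE 0.14, adjusted p = 0.0089, edgeR) and was called in all 7 fits without 1 library. Ext2, its partner in that polymerase, was at -0.41 (adjusted p = 0.0350, edgeR), and the 6-O-sulfotransferase Hs6st2 at -0.99 (0.0408). The epimerase Glce was at -0.48 (adjusted p = 0.0477, edgeR). With the suffix covariate Ext1 was called (-0.82, adjusted p = 0.0098, and 0.0441 with the suffixes of the file names), whereas Ext2 (0.0714), Hs6st2 (0.1017) and Glce (0.0610) did not pass. Ext2 and Hs6st2 were each called in 2 of the 7 fits and Glce in none (adjusted p = 0.0601 to 0.1174, edgeR). The number called was 1 without Sp3-/- 697-2, WT 685-2, WT 697-1 or WT 697-3, beside 282, 893, 766 and 802 of all genes. It was 4 without WT 468-4 or Sp3-/- 685-1 and 3 without Sp3-/- 697-5, beside 4179, 2232 and 1408 of all genes.

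Of 20 adaptor and kinase genes of the relay from receptor to ERK, 2 were called, beside 18.5% of all genes. The number was 7 with DESeq2, 5 with all 11 libraries, 1 with limma-voom, 1 with the title suffix and 0 to 5 with 1 library left out (0 without Sp3-/- 697-2, 5 without Sp3-/- 685-1). The same fits called 4297, 3977, 2493 and 1329 of all genes, and 282 and 2232 without 697-2 and 685-1. Sos2, a nucleotide exchange factor of RAS, rose by 0.56 (SE 0.08, adjusted p = 0.0109, edgeR), and Plcg1, a phospholipase recruited by FGF receptors, had a fold change of -0.61 (SE 0.17, adjusted p = 0.0491). Plcg1 was no longer called once the suffix was in the fit (-0.25, adjusted p = 0.3344, edgeR), and passed in 2 of the 7 fits with a single library removed. The call of Sos2 was lost without Sp3-/- 697-2 (adjusted p = 0.0545, edgeR) and with the suffixes of the file names (0.1656). None of 7 FGF co-receptors and binding proteins was called at the adjusted threshold in the edgeR fit of the 7 libraries without a covariate. The edgeR fits with all 11 libraries, the title suffix, and suffix or none each called 1, beside 3977, 1329 and 1458 of all genes. Of the 7, 2 had an unadjusted p below 0.05 in the fit without a covariate, beside 5278 of all 14025 genes. DESeq2 called 1, beside 4297 of all genes. Of 7 other FGF genes tested, Fgf11, an intracellular FGF that is not secreted, was called, at -1.74 (SE 0.37, adjusted p = 0.0240, edgeR). It was called with the title suffix as a covariate (-1.80, adjusted p = 0.0275), and it was not called with the suffixes of the file names (-1.90, adjusted p = 0.1011) or in 5 of the 7 fits without 1 library (adjusted p = 0.0521 to 0.0764).

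For the ligand and the receptor with the lowest p between Sp3-/- and WT, Fgf1 and Fgfr2, the genes with the most similar pattern were sought over all 11 libraries, as a description. Fgf1 followed Ahcyl2 (Pearson r = 0.985), Jam2 (0.979) and Ubxn4 (0.975) most closely among 11196 candidates. Fgfr2 followed Kptn (0.995), 2310022B05Rik (0.990) and Mmp11 (0.985). The 11 points share their genotypes and title suffixes, so that any gene that moves with either can reach a high r.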

How the data were processed

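RNA was sequenced from 11 TruSeq libraries. Per the labels and methods, the authors checked reads with FastQC 0.10.1, aligned them to mm10 with STAR 2.4.5a and counted them per gene symbol with HTSeq. The deposited values are whole-number counts with no normalization, and tallies of reads on no gene were left out. The annotation version and strand setting are not given in the sources used here.

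The test was that of edgeR 4.0.16 in R 4.3.3, for genes that exceeded 1 CPM in 1 or more of the libraries fitted (TMM, robust glmQLFit, 2-sided glmQLFTest, Benjamini-Hochberg over all genes tested). Sp3-/- against WT used those 7 libraries and the other comparisons used all 11. Standard errors were derived from the fold change and its F statistic. Log2 CPM used a prior count of 2. Genes other than the 10 were named by a rule: per list, the called genes with the lowest p, at most 3 in each direction, every called gene of the feedback and response lists, Sp3, and the 3 genes most correlated with the ligand and the receptor of lowest p. Further genes (Glce, Spry1, Etv4, Etv5) were named after their values were seen. Of the cell type marker lists, genes were named only from the mesothelial list (Wt1, Bnc1 and Upk1b), beside Fgf9. The genes and lists were chosen with earlier results of these data known. The groups hold 3 or 4 libraries, and nothing states that libraries sharing the first number of their title come from 1 litter, so p-values measure the spread between these libraries. No libraries were alike within counting noise (lowest chi-square per degree of freedom 15.77). Alternatives used DESeq2 1.42.0, limma-voom (limma 3.58.1), other scalings and filters, covariates and left-out libraries. Lengths came from the GENCODE annotation of GRCm39 and promoter windows from RefSeq (GRCm38.p6), read with Python 3.11.15.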

Additional observations from a re-analysis of the deposited data

Results flagged for a closer look

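Single libraries stood apart from the other 3 of their genotype, by Dixon's criterion on log2 CPM, in 8 of the 52 groups examined (26 named genes in WT and in Sp3+/-). The criterion's rate of about 1 in 20 holds for independent groups. These groups share their libraries and many of the genes were named because they were called, so that the number cannot be set against that rate. WT library 685-2 was low for Fgf9 (1.68, others 2.53 to 2.64), Fgf11 (0.52, others 1.55 to 1.63) and Il17rd (4.91, others 5.13 to 5.17). WT library 697-3 was low for Fgf10 at 2.81, with the others at 5.26 to 5.43. Sp3+/- library 697-4, the only one of its genotype without a title suffix, was also low for Fgf10 (3.80, others 4.77 to 4.95). Sp3+/- library 685-5 was high for Fgf18 (4.05, others 3.22 to 3.27), and Sp3+/- library 468-3 was low for Dusp6 (3.00, others 3.91 to 4.09). WT library 697-1 was low for Fgfr4 (-2.77, others -1.56 to -1.47), a difference that rests on 2 counts.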

How the results depend on the processing

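The directions of the 9 genes between Sp3-/- and WT held under every alternative run, and the number called, 4 of 9, was 3 to 5 under the other tools, scalings and filters, all 11 libraries together and the title suffix as a covariate. It was 0 with libraries without a suffix only and 0 with the suffix of the file names (chosen after seeing the data), which differs from the title for 697-4, and 1 to 4 with 1 library left out. Between Sp3-/- and WT, 4 were called with suffix or none as the covariate (chosen after seeing the data), namely Fgf1, Fgf7, Fgf10 and Fgfr1. Between Sp3-/- and Sp3+/-, 5 were called, and 3 with limma-voom with or without a consensus correlation, 1 with the title suffix, 0 with the file suffix, 2 with suffix or none and 2 to 5 with 1 library left out. With the first title number as a replicate block, 2 were called there (Fgf10, Fgfr1 and Fgfr2 were not, adjusted p = 0.0606, 0.0539 and 0.0702 by edgeR) and the same 4 between Sp3-/- and WT. The numbers were not shown to pair libraries (same-number r -0.70 to 0.412, 7 of 14 pairs over 0.1, among them all 5 of number 685), so the block is an alternative only. Among uncalled values, Fgfr3 turned to -0.13, -0.19 and -0.14 with the title, file and suffix-or-none covariates and Fgf2 to -0.03 with the file suffix (Sp3-/- against Sp3+/-). Between Sp3+/- and WT, Fgf10 turned to 0.02 and 0.03 with limma-voom, and leaving out 1 library gave -0.10 to 0.10 for Fgf2, -0.01 to 0.41 for Fgf18 and -0.28 to 0.09 for Fgfr2. Calls over all genes (2599, Sp3-/- against WT) were 4297 with DESeq2, 4031 with the block, 3977 with all 11 libraries, 1329, 163 and 1458 with the title, file and suffix-or-none covariates, and 282 (without 697-2) to 4179 (without 468-4). Against Sp3+/-, 3607 of all genes were called. The number was 3709 and 3691 with limma-voom without and with a consensus correlation, and 2956 with the block. It was 763, 0 and 919 with the title, file and suffix-or-none covariates, and 1490 to 4245 without 1 library. The causes were not tested. Fgfr4, at 2 to 11 counts per library, was below the CPM filter, and the precision of low genes is lowest in Sp3-/- library 697-5, at 9849111 reads.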
